A study of Mus musculus with 20 samples.

Results

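The genes described here are 10 interferon-inducible GTPases of the mouse. They comprise the guanylate binding proteins (GBPs) Gbp2, Gbp3, Gbp4, Gbp5, Gbp6 and Gbp7 and the immunity-related GTPases (IRGs) Irgm1, Irgm2, Igtp and Iigp1. The genes were taken by symbol. All 10 were found among the 33243 symbols of the count table. All 10 were also among the 16632 genes that reached a total of 10 counts over the 20 libraries and were tested.

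RNA was measured in dCAMs, the CNS-associated macrophages that reside in the dura mater of the skull. They were sorted as CD45int CD11b+ CD206int-high cells. Every mouse was Ccr2creERT2/+ R26tdT/tdT and had received BLZ945, an inhibitor of the receptor CSF1R that depletes macrophages, at 200 mg/kg for 7 days. Tamoxifen followed at 2 mg per day on the final day of gavage and 2 and 4 days after it, so that cells expressing Ccr2, a chemokine receptor of blood monocytes, switched on the fluorescent protein tdTomato (tdT) from the R26 locus. The label is passed on to the progeny of such cells. A cell without label can be one that never expressed Ccr2 or one in which recombination did not take place. The latter include cells that came to express Ccr2 only after the period of tamoxifen. At 8 weeks after the last gavage the mice were injected with lipopolysaccharide (LPS) at 2.5 mg/kg or with PBS (CTL), and the dura was taken 12 h later. From each of 5 LPS and 5 CTL mice a tdT+ and a tdT- library was made, which gave 4 groups of 5 libraries: tdT- CTL, tdT+ CTL, tdT- LPS and tdT+ LPS. Libraries are named here by group and by the number of the mouse.

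GBPs and IRGs are families of GTP-binding proteins that macrophages make in quantity after interferon, and through interferon after LPS. GBPs assemble on the membranes of bacteria and of vacuoles that hold parasites or bacteria, break them open and bring lipopolysaccharide to the caspases of the non-canonical inflammasome. Among the IRGs, Iigp1 (Irga6) is an effector that loads onto parasite vacuoles, whereas Irgm1, Irgm2 and Igtp (Irgm3) sit on the membranes of the host cell and keep the effectors inactive there. Interferon signals reach these genes at GAS elements and at interferon-stimulated response elements (ISREs), where IRF factors bind.

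In the GRCm38 annotation (GENCODE M21), Gbp5, Gbp7, Gbp3 and Gbp2 lay next to one another on the forward strand of chromosome 3, between 142493978 and 142638008. Gbp4 and Gbp6 lay on the reverse strand of chromosome 5, between 105115767 and 105293698. Irgm1 was on the reverse strand of chromosome 11, from 48861968 to 48871683. Igtp and Irgm2 were on its forward strand between 58199556 and 58222782, where the annotated transcripts of both genes overlap. All of these genes are annotated as protein coding. RefSeq promoter windows of GRCm38.p6 run from 250 bases before to 50 bases after a transcription start. They were used for 7 of the 10 genes, namely Gbp2, Gbp3, Gbp5, Gbp7, Irgm1, Irgm2 and Igtp. No window was found for Gbp4 and Gbp6, and Iigp1 was left out of the search. The windows were searched on both strands for the ISRE core GAAANNGAA and for the GAS sequence TTCNNNGAA, where N is any base. An ISRE core was present in all 7 genes searched, against 9.76% of all 27025 genes with windows. A GAS match was present in 4 of the 7 genes (Gbp5, Gbp7, Igtp and Irgm2), against 9.55% of all genes. The match is a match of letters and no record of binding in these cells.

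Windows of 4 genes are shown because the results turn on these genes. Transcripts of Gbp2 rose after LPS in both populations and those of Irgm1 in tdT+ dCAMs, and Igtp and Irgm2 are neighbours that carry the same arrangement of both motifs. Capitals mark the ISRE core and GAS matches, and each sequence is written 5′ to 3′ on the strand of the gene.
Gbp2, chr3:142620413-142620712, forward strand: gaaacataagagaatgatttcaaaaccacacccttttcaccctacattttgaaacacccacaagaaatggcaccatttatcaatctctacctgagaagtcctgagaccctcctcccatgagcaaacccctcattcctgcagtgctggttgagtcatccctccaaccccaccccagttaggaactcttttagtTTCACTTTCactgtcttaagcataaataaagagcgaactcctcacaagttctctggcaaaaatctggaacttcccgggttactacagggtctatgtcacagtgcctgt
Irgm1, chr11:48871371-48871670, reverse strand: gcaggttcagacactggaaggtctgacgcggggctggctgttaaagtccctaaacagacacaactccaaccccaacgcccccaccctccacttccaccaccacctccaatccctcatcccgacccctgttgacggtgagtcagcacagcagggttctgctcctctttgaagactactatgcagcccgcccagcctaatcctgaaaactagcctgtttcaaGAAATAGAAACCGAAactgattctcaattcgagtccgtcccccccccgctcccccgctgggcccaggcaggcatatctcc
Igtp, chr11:58199306-58199605, forward strand: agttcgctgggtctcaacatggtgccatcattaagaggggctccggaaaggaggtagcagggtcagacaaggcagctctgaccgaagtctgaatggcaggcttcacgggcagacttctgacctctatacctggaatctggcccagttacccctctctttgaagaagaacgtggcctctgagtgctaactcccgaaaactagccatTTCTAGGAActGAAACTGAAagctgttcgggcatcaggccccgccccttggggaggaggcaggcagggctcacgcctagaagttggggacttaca
Irgm2, chr11:58214727-58215026, forward strand: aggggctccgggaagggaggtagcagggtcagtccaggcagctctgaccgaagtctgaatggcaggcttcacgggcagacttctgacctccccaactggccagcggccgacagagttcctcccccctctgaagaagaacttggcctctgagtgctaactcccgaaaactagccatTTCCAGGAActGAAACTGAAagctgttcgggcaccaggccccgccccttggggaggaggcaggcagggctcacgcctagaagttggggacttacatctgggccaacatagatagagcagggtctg
In Gbp2 the ISRE core began 58 bases before the start and stood alone. Irgm1 held 2 overlapping ISRE cores, of which the first began 30 bases before the start. In Igtp and Irgm2 a GAS match was followed, 2 bases later, by an ISRE core, and the longest identical run between both windows was 61 bases.

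The libraries held 6017650 to 18925908 counts, with 6017650 to 12208203 in CTL libraries and 12073566 to 18925908 in LPS libraries. All 11 markers of dural macrophages were detected in every group. In tdT- libraries they summed to 11100 to 21700 CPM (counts scaled to the library size) in CTL and 11000 to 13600 CPM in LPS mice. In tdT+ libraries they summed to 24900 to 27500 CPM in CTL and 12900 to 18000 CPM in LPS mice, without overlap. Of other cell types, the 9 neutrophil markers summed to 0.733 to 180.0 CPM in CTL and 102 to 754 CPM in LPS libraries. Of the 9 markers, 7 exceeded 3 counts in at least 1 tdT- LPS library and 5 in at least 1 tdT+ LPS library. Mpo and Elane were at 0 in every LPS library. The 5 B cell markers summed to 608 to 1330 CPM in CTL and 13.2 to 40.7 CPM in LPS libraries. The 6 fibroblast markers summed to 10.9 to 4670 CPM in tdT- CTL libraries and 73.6 to 415 CPM in the other 3 groups. The 6 dendritic cell markers went from between 220.0 and 3330 CPM to between 12.7 and 89.6 CPM. T and NK cell markers, whose cells make interferon gamma, summed to 134 CPM at most, and Ifng was not among the tested genes. The part of these cells in the results was not tested. In bulk samples such as these, fewer cells of a type and less RNA per cell cannot be told apart.

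Gbp2 was the member with the clearest response to LPS, and it was higher in every LPS library than in every CTL library of the same population. Gbp2 belongs to the GBPs that are prenylated and can anchor in membranes by themselves. In tdT- CTL libraries it was at 70.0 CPM in mouse 174, 67.2 in 175, 86.2 in 177, 2.71 in 178 and 59.3 in 179. In tdT- LPS libraries it was at 232 CPM in mouse 54, 274 in 56, 536 in 59, 438 in 60 and 742 in 61. The lowest LPS library thus stood above the highest CTL library, and 1 CTL library lay far below the other 4. The log2 fold change in tdT- dCAMs was 2.96 ± 0.63 (SE, n = 5 per group, adjusted p = 0.00306), which is a 7.79-fold rise with a 95% interval of 3.13 to 19.4.

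In tdT+ dCAMs, Gbp2 was at 159 CPM in CTL mouse 174, 80.6 in 175, 32.5 in 177, 54.3 in 178 and 43.2 in 179. After LPS it was at 223 CPM in mouse 54, 268 in 56, 549 in 59, 482 in 60 and 867 in 61. Again no library of one group reached into the other. The log2 fold change was 2.69 ± 0.62 (adjusted p = 0.00871), a 6.46-fold rise with an interval of 2.62 to 15.9. With the mouse as a random block in limma-voom, the log2 fold change of Gbp2 was 3.54 in tdT- and 3.02 in tdT+ dCAMs, and the adjusted p was 0.0596 and 0.0609, so that both calls were lost in that fit. Both calls were kept in each of the other alternatives.

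Gbp3 and Gbp7, neighbours of Gbp2 on chromosome 3, did not pass the test after LPS in either population. Gbp7, which takes part in the killing of intracellular bacteria, had a mean of 79.6 CPM in tdT- CTL and 207 CPM in tdT- LPS libraries. Its tdT- CTL libraries ranged from 11.4 to 170.0 CPM and its tdT- LPS libraries from 169 to 261 CPM. The log2 fold change was 1.38 ± 0.52 (adjusted p = 0.0827). In tdT+ dCAMs the means of Gbp7 were 142 and 233 CPM, with a log2 fold change of 0.71 and an interval of -0.35 to 1.77. For Gbp3 the means were 64.8 CPM (CTL) and 117 CPM (LPS) in tdT- dCAMs, and 71.3 and 98.8 CPM in tdT+ dCAMs. The corresponding log2 fold changes were 0.85 ± 0.61 and 0.47 ± 0.61 (adjusted p = 0.361 and 0.796).

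Gbp4, Gbp5 and Gbp6 were the members with the lowest levels, and in CTL mice they were patchy from library to library. Gbp5, a prenylated GBP that promotes NLRP3 inflammasome assembly, had 0 counts in tdT- CTL mice 174 and 178. In the other tdT- CTL libraries it was at 6.04 CPM in mouse 175, 59.5 in 177 and 1.05 in 179. After LPS all 5 tdT- libraries held 19.1 to 78.7 CPM. Because of mouse 177 the tdT- groups overlapped, and the log2 fold change was 1.59 ± 1.23 (adjusted p = 0.407). Without CTL mouse 177, the log2 fold change of Gbp5 in tdT- dCAMs was 4.48 (adjusted p = 0.0229).

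In tdT+ dCAMs the Gbp5 values were 0.487 CPM in CTL mouse 174, 8.92 in 175, 2.08 in 177, 8.91 in 178 and 5.67 in 179. After LPS they were 13.3 CPM in mouse 54, 22.6 in 56, 38.9 in 59, 59.0 in 60 and 49.5 in 61. The groups did not overlap, yet the log2 fold change of 2.81 ± 1.29 did not pass the test over all genes (adjusted p = 0.231). Gbp6 likewise had 3.40 to 8.88 CPM in tdT+ CTL and 9.21 to 64.4 CPM in tdT+ LPS libraries without overlap, with a log2 fold change of 2.28 ± 1.13 (adjusted p = 0.271). When the 10 tdT+ libraries were fitted alone, both passed, with adjusted p of 0.00959 for Gbp5 and 0.00936 for Gbp6. The SE in that fit were 0.67 for Gbp5 and 0.54 for Gbp6. Reads of Gbp6 are uncertain, since 70.7% of the 50-base stretches of its annotated transcripts also occur in other genes, 65.0% in Gm43302.

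Gbp4 was at 0 counts in 1 tdT- CTL and 1 tdT+ CTL library, and its other CTL libraries went up to 28.7 CPM in the tdT- and to 26.0 CPM in the tdT+ population. After LPS its tdT- libraries held 17.1 to 96.8 CPM and its tdT+ libraries 10.6 to 101 CPM. The log2 fold changes of 2.24 ± 1.24 and 1.73 ± 1.22 did not pass the test (adjusted p = 0.228 and 0.512). In the annotation Gbp8 and Gbp9 overlap Gbp4, and all of these genes lie on the reverse strand. Whether reads were assigned by strand is not given in the sources used here, and such an assignment would not separate these genes.

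Of the IRGs, Irgm1 passed the test in tdT+ dCAMs. Irgm1 protects host membranes from the effector IRGs and is required for resistance to mycobacteria. In tdT+ CTL libraries it was at 204 CPM in mouse 174, 127 in 175, 117 in 177, 97.2 in 178 and 149.9 in 179. After LPS the values were 241 CPM in mouse 54, 196 in 56, 266 in 59, 317 in 60 and 463 in 61. Only the lowest LPS library and the highest CTL library crossed. The log2 fold change was 1.09 ± 0.30 (adjusted p = 0.0300), a 2.13-fold rise with an interval of 1.38 to 3.30. This call lay close to the limits: with the title letter of the mouse as a covariate the adjusted p was 0.0620, and without CTL mouse 175, 177 or 178 or LPS mouse 59, 60 or 61 it was not called, with adjusted p of up to 0.104.

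In tdT- dCAMs Irgm1 ranged from 123 to 280 CPM in CTL and from 191 to 444 CPM in LPS libraries, and its log2 fold change was 0.47 ± 0.30 (adjusted p = 0.299). Irgm1 was the steadiest member in tdT- CTL libraries, with an SD of 0.51 on the log2 CPM scale. Whether LPS acted differently in both populations was tested directly, and for Irgm1 the difference of the log2 fold changes, tdT+ minus tdT-, was 0.62 with an interval of -0.26 to 1.5 (adjusted p = 0.643).

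Igtp and Irgm2, neighbours with the same promoter motifs, did not pass the test in either population. Igtp, which is needed for resistance to Toxoplasma, had means of 157 and 181 CPM in tdT- CTL and LPS libraries and of 89.5 and 184 CPM in their tdT+ counterparts. Its log2 fold change was 0.20 ± 0.40 in tdT- and 1.04 ± 0.41 in tdT+ dCAMs (adjusted p = 0.786 and 0.155), and in the 10 tdT+ libraries alone it was called (adjusted p = 0.0391). For Irgm2, which restrains the non-canonical inflammasome, the means were 97.6, 74.8, 86.1 and 83.5 CPM in the same order. Its log2 fold changes were -0.38 and -0.04, with intervals of -2.02 to 1.25 and -1.68 to 1.59. Irgm2 was the member with no positive estimate in either population, although with the random mouse block its estimates were 1.52 and 0.0704. Reads may be shared, as 11.8% of the 50-base stretches of Igtp occur in Irgm2.

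Iigp1, the effector IRG, was among the most variable members in tdT- CTL libraries. Its values there were 88.2 CPM in mouse 174, 124 in 175, 27.6 in 177, 11.9 in 178 and 0.131 in 179, the last from a single count. In tdT- LPS libraries it was at 70.2 CPM in mouse 54, 72.0 in 56, 162 in 59, 138 in 60 and 382 in 61. The groups overlapped, with a log2 fold change of 1.71 ± 0.86 (adjusted p = 0.184). In tdT+ dCAMs Iigp1 ranged from 68.4 to 209 CPM in CTL and from 81.0 to 528 CPM in LPS libraries, and the log2 fold change was 0.77 ± 0.84 (adjusted p = 0.732).

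**Figure D1:**
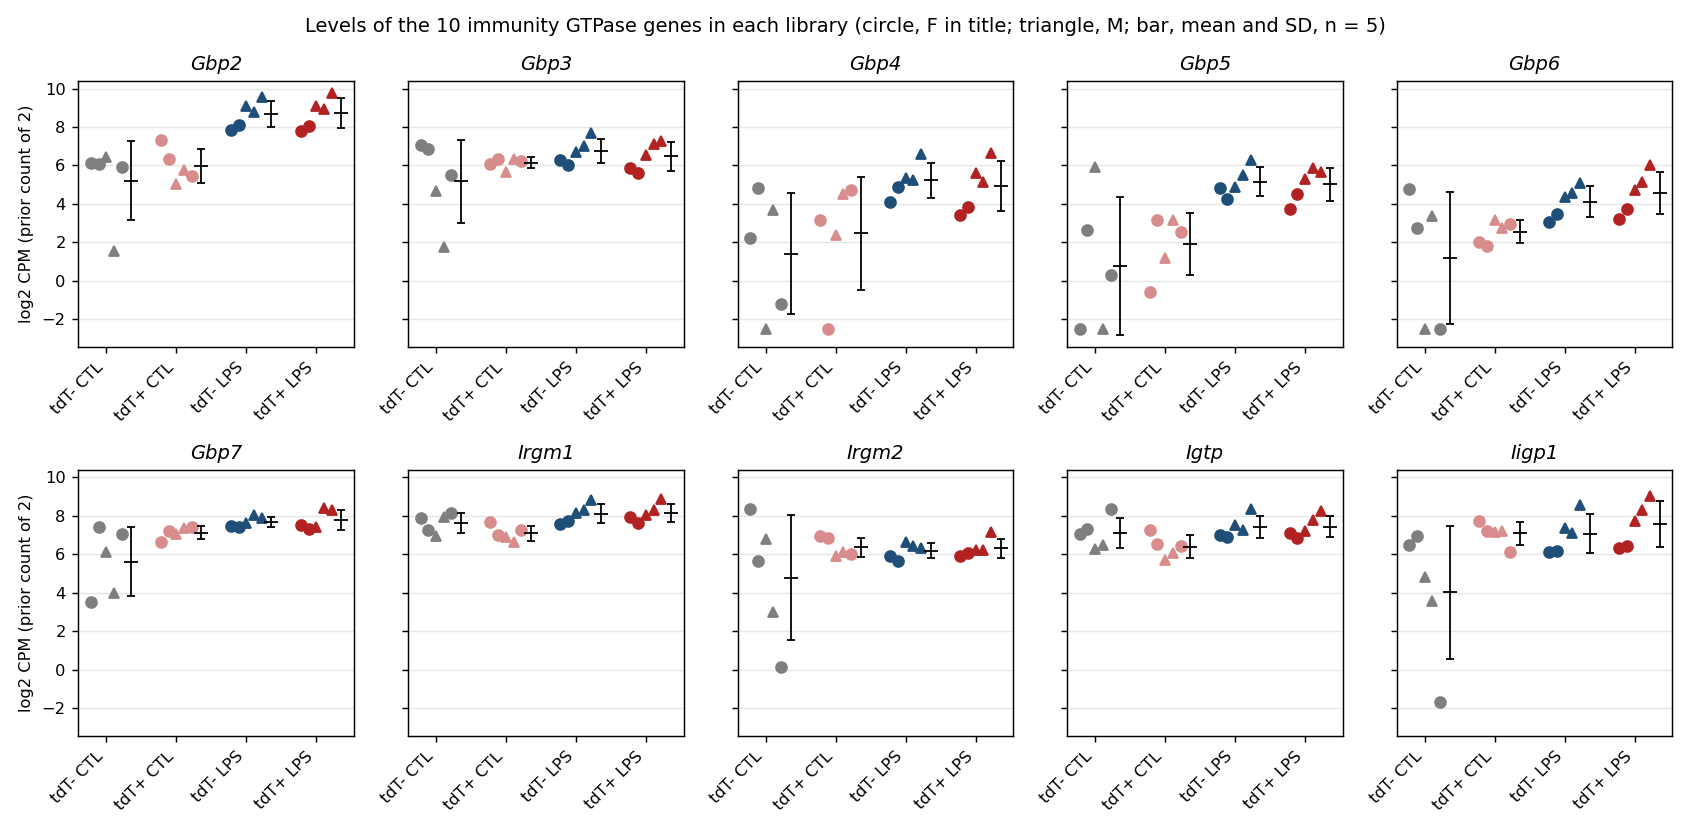
Level of each of the 10 genes (log2 CPM with a prior count of 2) in each library of the 4 groups. Circles are libraries with F and triangles libraries with M in the sample title, and bars give the mean and SD of 5 libraries. Gbp2 shows no overlap between CTL and LPS in either population, and the tdT- CTL libraries are the most scattered.

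Counted over the members, 1 of 10 (Gbp2) was called higher after LPS in tdT- dCAMs and none lower, where 7.2% of all tested genes were called higher and 4.27% lower. In tdT+ dCAMs 2 of 10 (Gbp2 and Irgm1) were called higher and none lower, against 3.37% and 2.52% of all genes. A gene was called when its adjusted p was below 0.05 and its log2 fold change beyond 1. The LPS libraries lay above all CTL libraries for 1 member in tdT- dCAMs (9.32% of all genes) and for 3 members, Gbp2, Gbp5 and Gbp6, in tdT+ dCAMs (10.6% of all genes). The fitted log2 fold changes had a median of 1.26 in tdT- and 1.07 in tdT+ dCAMs, against 0.02 and 0.01 over all genes. They were positive for 9 of 10 members in each population, all but Irgm2, and 2 and 4 members had an unadjusted p below 0.05. With the random mouse block, Gbp4, Gbp5, Gbp6 and Gbp7 were called in tdT- dCAMs with adjusted p of 0.00471 to 0.0419, in a fit where the median of all genes stood at 0.764. In tdT+ dCAMs 1 member was called in that fit.

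**Figure D2:**
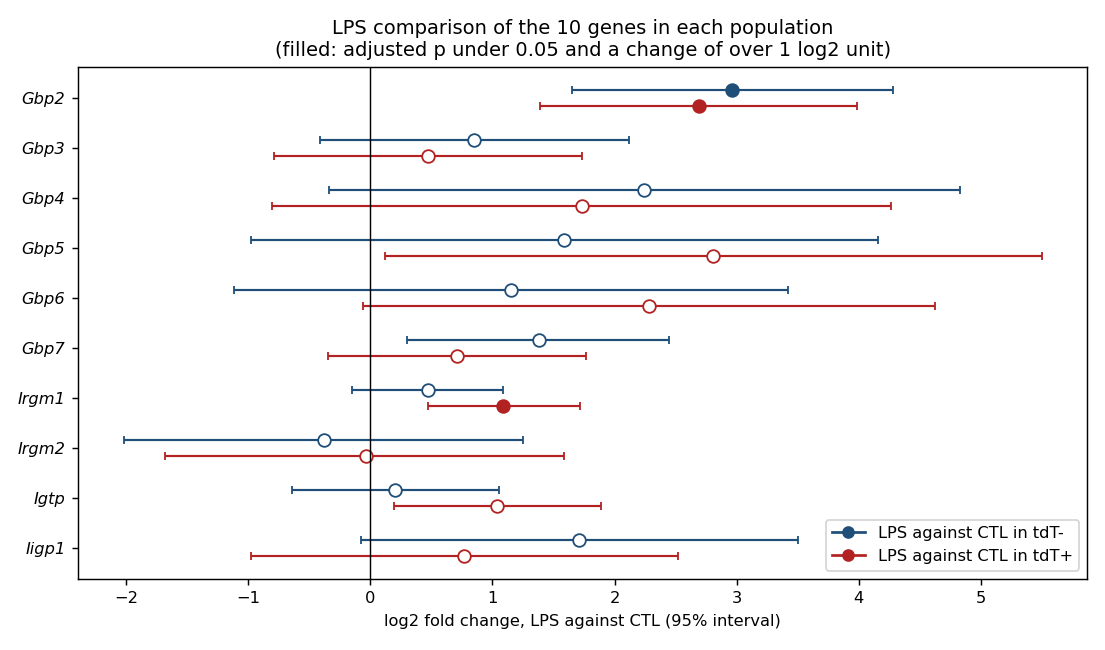
Log2 fold change between LPS and CTL libraries for each gene, in tdT- (blue) and tdT+ (red) dCAMs, with 95% intervals. The intervals come from 1 fit of all 20 libraries (5 per group), in which the 4 groups share 1 spread per gene. Filled points passed the test, which were Gbp2 in both populations (2.96 and 2.69) and Irgm1 in tdT+ dCAMs (1.09).

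Levels were compared between genes as CPM per kilobase of annotated exon. In CTL libraries Igtp led in both populations, at 77.5 ± 48.7 (SD) CPM per kilobase in tdT- and 44.3 ± 19.1 in tdT+ dCAMs, and it was above the next gene in 5 of 5 libraries of each. After LPS Gbp2 led with 177 ± 82.3 and 190.0 ± 102 CPM per kilobase, ahead of Igtp with 89.2 and 91.2 and of Irgm1 with 49.4 and 51.0. Gbp2 was above Igtp in 5 of 5 libraries of each LPS group. As a share of the length-scaled sum of the 10 members, Gbp2 made up 10.5% in tdT- CTL and 13.8% in tdT+ CTL libraries but 38.5% and 38.3% after LPS. Igtp went from 37.0% and 21.9% to 19.8% and 19.5%. In the middle of the order, neighbours changed places between libraries. In tdT+ CTL libraries, for example, Gbp2, Gbp7, Iigp1, Irgm1, Irgm2 and Gbp3 had means between 21.8 and 29.4 CPM per kilobase. Gbp4, Gbp5 and Gbp6 were the lowest members in every group, at 6.05 CPM per kilobase or less.

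**Figure D3:**
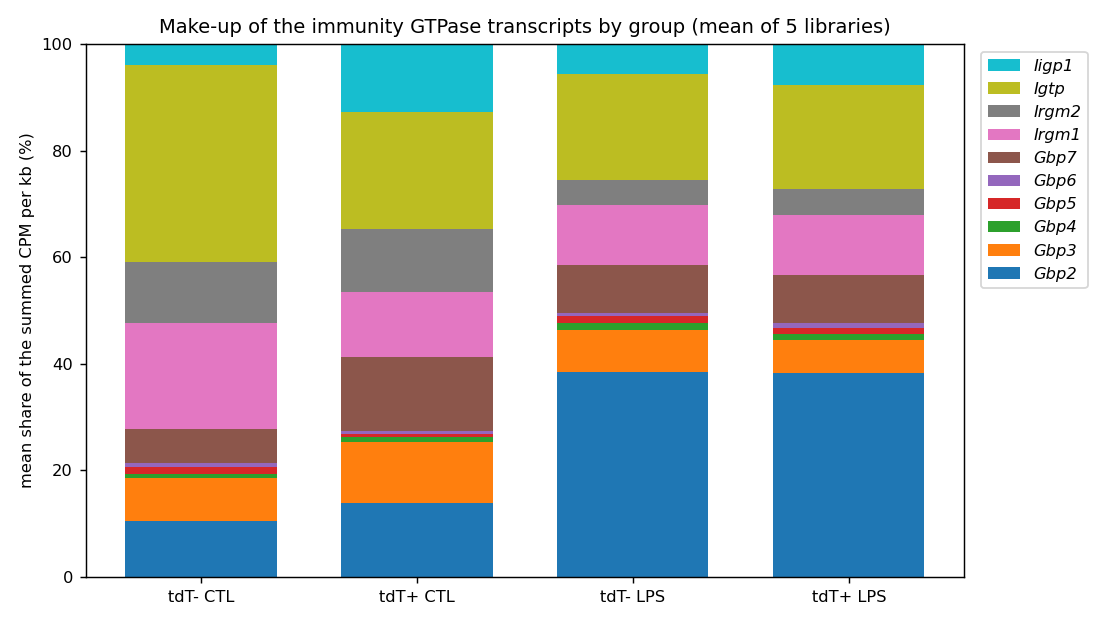
Mean share of each gene in the summed CPM per kilobase of the 10 members, as stacked bars in percent for the 4 groups (5 libraries each). The Gbp2 part grows from 10.5% and 13.8% in CTL to 38.5% and 38.3% in LPS libraries.

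The populations were then compared within each treatment. In CTL mice no member was called between tdT+ and tdT- dCAMs, where 3.01% of all genes were called higher and 1.27% lower in tdT+, and 0 of 10 had an unadjusted p below 0.05 in edgeR. Neither DESeq2 nor any other alternative called a member. Over all genes 712 were called here, and 7 when the 10 CTL libraries were fitted alone. The intervals were wide. For Iigp1 the log2 difference, tdT+ minus tdT-, was 1.5 with an interval of -0.28 to 3.28, for Igtp -0.81 with -1.66 to 0.04, and for Irgm1 -0.58 with -1.20 to 0.05. For the other 7 members the estimates lay between -1.35 (Gbp5) and 0.84 (Gbp7). Iigp1 was higher in the tdT+ library of all 5 CTL mice, as were 5.85% of all genes, and Irgm1 was lower in all 5, as were 3.61% of all genes.

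In LPS mice no member was called either, beside 0.0301% of all genes called in either direction, and none had an unadjusted p below 0.05. The largest estimates were 0.61 for Gbp6 and 0.56 for Iigp1, with intervals of -1.63 to 2.85 and -1.18 to 2.31. Both were higher in the tdT+ library of all 5 LPS mice, as were 5.19% of all genes. The Gbp6 differences of the 5 mice lay between 0.15 and 0.94 log2 units and those of Iigp1 between 0.21 and 1.17. The difference between the populations in their LPS effect was called for none of the members, against 1.26% of all genes in either direction. Its estimates ran from -0.94 for Iigp1 to 1.22 for Gbp5, and the interval of Gbp2 was -2.0 to 1.46.

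What separated CTL from LPS mice was how closely the libraries of a mouse matched. Over 10 members and 5 CTL mice the absolute log2 difference between both libraries of a mouse had a median of 1.19 and a maximum of 7.80, and it was over 2 in 18 of 50 pairs. In LPS mice the median was 0.25 and the maximum 1.17, and 47 of 50 pairs were under 1. The scatter in CTL mice lay mostly in the tdT- libraries. The median SD of the members on the log2 CPM scale was 2.65 for tdT- CTL and 0.587 for tdT+ CTL libraries, and it was 0.667 for tdT- LPS and 0.774 for tdT+ LPS libraries. This was not particular to the members, since medians over the 5823 genes whose log2 CPM averaged 4 or more were 1.63, 0.436, 0.267 and 0.241. CTL libraries were also shallower, and 7 of 50 tdT- CTL and 2 of 50 tdT+ CTL values rested on 3 counts or fewer, against 0 of 50 in each LPS group. The part of depth in this scatter was not tested for the pairs.

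**Figure D4:**
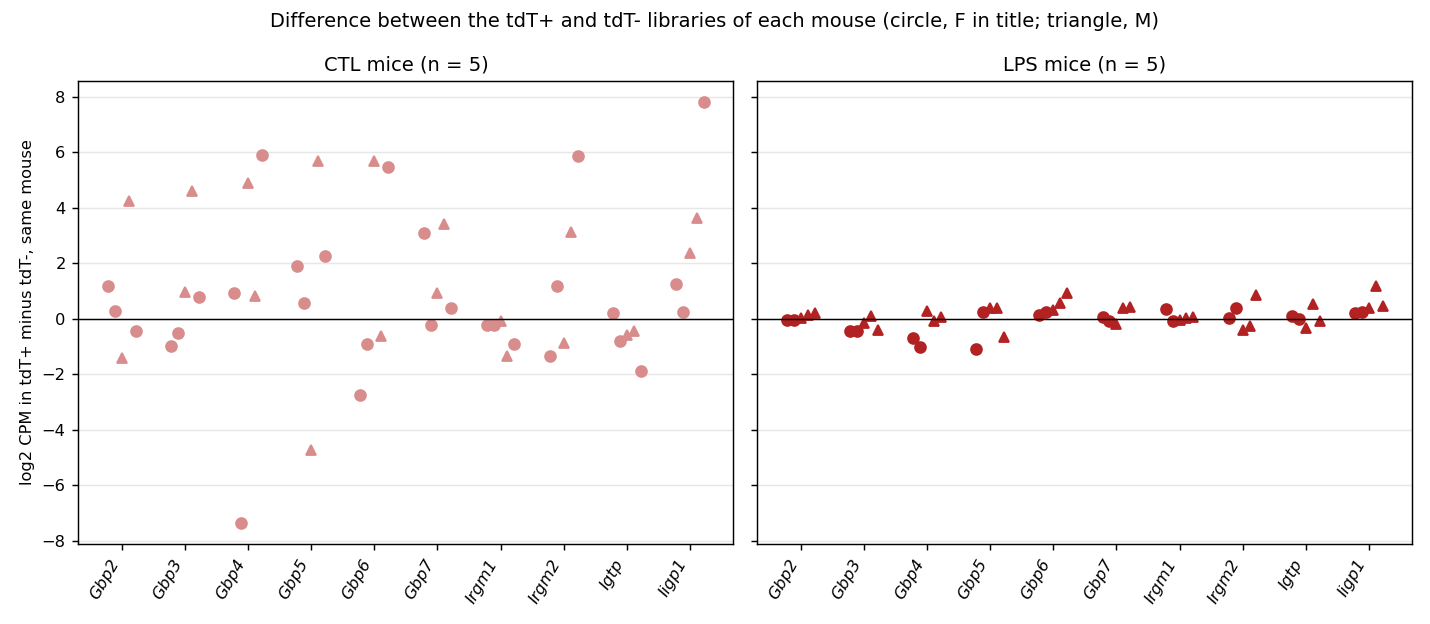
Difference in log2 CPM between the tdT+ and the tdT- library of the same mouse for each gene, in CTL (left) and LPS (right) mice. Each point is 1 mouse, with circles for F and triangles for M in the title. Points spread up to 7.80 log2 units from 0 in CTL mice and up to 1.17 in LPS mice.

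Within the LPS group the members were high or low in the same mice, in both populations. Sample titles carry the letter F for LPS mice 54 and 56 and M for mice 59, 60 and 61. Xist, the transcript of the inactive X chromosome, separated the letters: the 10 F libraries held 17.0 to 209 CPM of it and the 10 M libraries 0.113 CPM or less. The summed level of the 10 members was 987 to 1020 CPM in the 4 F libraries and 1620 to 2990 CPM in the 6 M libraries of LPS mice. For 9 of the 10 members, all but Gbp7, every M library stood above every F library, which held for 0.758% of all tested genes. This pattern was noticed in the same data and is given as a description.

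Iigp1 and Gbp4 showed the widest gap between these mice, with M libraries 3.35-fold and 3.24-fold above F libraries on the mean of log2 CPM. Iigp1 was at 70.2 to 85.8 CPM in F and 138 to 528 CPM in M libraries, and Gbp4 was at 10.6 to 28.9 and 35.3 to 101 CPM. Gbp2 was at 223 to 274 CPM in F and 438 to 867 CPM in M libraries, a 2.36-fold difference. The narrowest gaps were 1.42-fold for Gbp7, whose ranges overlapped, 1.54-fold for Irgm2 and 1.63-fold for Irgm1. The median over the members was 1.18 log2 units, against -0.01 over all genes. In CTL mice, with F for 174, 175 and 179 and M for 177 and 178, the median over members was -0.34 and for none of them did all M libraries exceed all F libraries (0.463% of all genes).

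Since the libraries of a mouse share an animal, they were summed and 10 mice were fitted with treatment and letter as groups, an analysis chosen after the pattern was seen. Between M and F in LPS mice no member was called (0.018% of all genes were, in either direction). Here 6 of 10 members and 1.53% of all genes had an unadjusted p below 0.05 in edgeR, and the smallest were 0.00534 for Iigp1 (log2 difference 1.95 ± 0.55) and 0.00603 for Gbp3 (1.14 ± 0.33). All 10 estimates were positive. Between M and F in CTL mice no member was called (0.0421% of all genes), and 2 of 10 had an unadjusted p below 0.05, Igtp at -1.11 ± 0.31 and Gbp3 at -1.17 ± 0.33.

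The LPS effect in M mice was called for 4 members (6.81% of all genes in either direction), Gbp2 at 3.81 ± 0.49, Gbp3 at 1.77 ± 0.34, Igtp at 1.68 ± 0.31 and Irgm1 at 1.31 ± 0.31 log2 units. In F mice it was called for Gbp2 at 1.61 ± 0.41 (5.57% of all genes). The difference of both effects, tested as an interaction, was called for no member and for 0.0% of all genes. Unadjusted, 5 of 10 members and 6.52% of all genes were below 0.05, with Gbp3 at 2.31 ± 0.47 (adjusted p = 0.545) and Igtp at 1.98 ± 0.43 (adjusted p = 0.578). With 2 and 3 LPS mice, the letter cannot be told apart from other differences between these mice. Summed markers of macrophages, monocytes, neutrophils, T and NK cells and B cells overlapped between the letters in LPS mice, neutrophil markers for example at 168 to 754 CPM in F and 102 to 691 CPM in M libraries. Of the 17 tested genes of interferon signalling, 1 (Ifnar1) was above in all M libraries, against 0.758% of all genes. For 14 of the 17 the mean log2 CPM was higher in M libraries. The median difference of the 17 was 0.25 log2 units, against -0.01 over all genes.

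**Figure D5:**
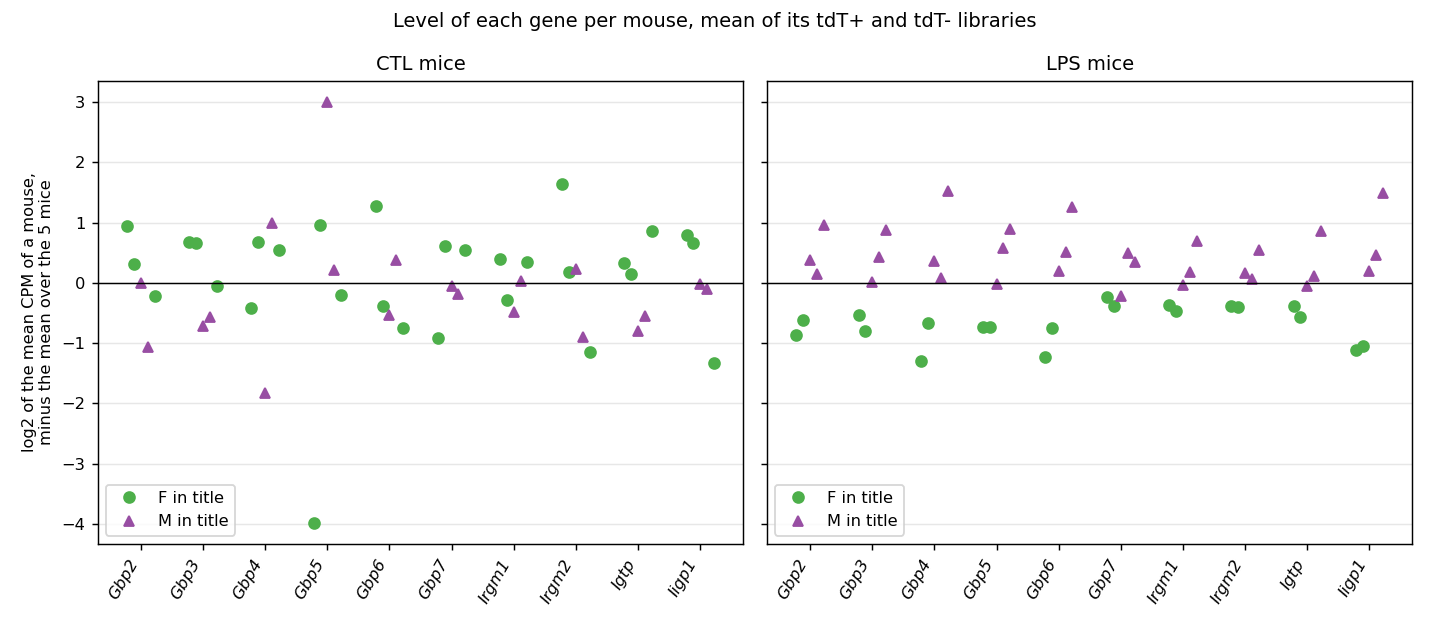
Level of each gene per mouse, as the log2 of the mean CPM of its libraries minus the mean over the 5 mice of that treatment. Green circles are mice with F and purple triangles mice with M in the title. In LPS mice the F mice lie below the M mice, as in the library ranges of Gbp2 (223 to 274 against 438 to 867 CPM), whereas in CTL mice the F mice lie above the M mice for Gbp3 and Igtp.

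Of the other GBP and IRG genes, 15 were tested, and 2 were called higher after LPS in tdT- and 0 in tdT+ dCAMs, against 7.2% and 3.37% of all genes. One of them, F830016B08Rik, an IRG of the family of Iigp1, was nearly absent from tdT- CTL libraries. It gave 1 count in all over the 5 tdT- CTL libraries but 8.17 to 21.9 CPM in tdT+ CTL libraries. After LPS it was at 5.37 to 11.6 CPM in tdT- and 10.2 to 33.0 CPM in tdT+ libraries. It was called for the populations in CTL mice (adjusted p = 5.98e-05), for LPS in tdT- dCAMs (adjusted p = 2.04e-05) and for the difference of the LPS effects (adjusted p = 0.00202), the last in all 18 alternatives. The call for the populations was lost in the 10 CTL libraries alone (adjusted p = 0.158). The other, Gm4841, was at 0 counts in all 10 CTL libraries and at 0.224 to 3.09 CPM in tdT- LPS libraries (adjusted p = 0.0388), and was lost in 11 of 18 alternatives. In tdT+ dCAMs its LPS mean was 1.75 CPM (adjusted p = 0.0548), and its LPS effects in both populations were not called different (adjusted p = 1.0). Ifi47, another IRG, at 140.0 to 237 CPM in the group means, was not called in any comparison.

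In the interferon pathway upstream of the members, 17 genes were tested, and the counts for this and the following lists stand beside 7.2% of all genes called higher and 4.27% lower in tdT- dCAMs, and 3.37% and 2.52% in tdT+ dCAMs. None was called higher in tdT- dCAMs and 1 in tdT+ dCAMs, Usp18, a feedback inhibitor of type I interferon signalling, with a log2 fold change of 2.06 ± 0.47 (adjusted p = 0.00802). In both populations 1 fell, Irf1, a transcription factor for ISREs, from 409 to 195 CPM in tdT- and from 449 to 177 CPM in tdT+ dCAMs (adjusted p = 0.00938 and 0.00211).

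Of 13 genes of LC3 conjugation, the machinery that directs GBPs and IRGs to vacuoles, 2 fell in tdT- and 3 in tdT+ dCAMs and none rose, where 4.27% and 2.52% of all genes were called lower. Map1lc3a went from 41.9 to 12.3 CPM in tdT- and from 48.1 to 12.9 CPM in tdT+ dCAMs (adjusted p = 0.0155 and 0.0140). Gabarapl1 fell in both as well (adjusted p = 0.00832 and 0.0357), and Map1lc3b in tdT+ dCAMs (0.0385). Among 17 partners of the GTPases, 3 rose and 1 fell in tdT- dCAMs, and 5 rose in tdT+ dCAMs, where 7.2% and 3.37% of all genes were called higher. Pycard, the ASC adaptor of inflammasomes, rose from 63.9 to 285 CPM in tdT- and from 43.4 to 287 CPM in tdT+ dCAMs (adjusted p = 0.000999 and 0.000127). Nos2, the inducible nitric oxide synthase, was at 0 counts in tdT- CTL and at 1 count in all in tdT+ CTL libraries, and at 114 and 90.6 CPM on average after LPS (adjusted p = 1.84e-06 and 2.67e-06). Ywhag rose in both populations (adjusted p = 0.00546 and 0.0194). Il1b and Gsdmd, the cytokine and the pore protein released and cut downstream of inflammasomes, were called higher in tdT+ dCAMs (adjusted p = 0.00211 and 0.0183). The call of Il1b was lost with the random mouse block (adjusted p = 0.0946). In tdT- dCAMs Gsdmd went from 107 to 214 CPM (adjusted p = 0.0292), with a log2 fold change of 1.0, which did not pass the limit. Il1b changed there by 0.46 ± 0.24 log2 units (adjusted p = 0.2). No partner and no gene of LC3 conjugation was called for the difference of the LPS effects (1.26% of all genes in either direction). Lgals3, a galectin that marks broken vacuoles, fell in tdT- dCAMs from 438 to 117 CPM (adjusted p = 0.00190). In CTL mice Il1b and Lgals3 were lower in tdT+ than in tdT- dCAMs (adjusted p = 0.00339 and 0.00350). Both of these calls were lost in the 10 CTL libraries alone (adjusted p = 0.190 and 0.158), and that of Il1b also with the random mouse block (adjusted p = 0.103). Of 6 prenylation genes, Fnta, a subunit of the farnesyl and geranylgeranyl transferases, fell in both populations (adjusted p = 0.0360 and 0.00500). Some of these calls were close to the limits. Of 18 alternatives, Map1lc3b was kept in 8, Gabarapl1 in tdT+ dCAMs in 10, Fnta in tdT- dCAMs in 9, Map1lc3a in 14 in each population, Ywhag in tdT+ dCAMs in 14, and Irf1 in tdT- and Gsdmd in tdT+ dCAMs in 15, with leaving out a single mouse among the settings that lost each of them.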

How the data were processed

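Gene expression was measured by bulk RNA-seq in tdT+ and tdT- dCAMs of 10 mice, 5 given LPS and 5 given PBS (CTL), which gave 20 libraries. The libraries came from a kit for low RNA input with PCR amplification (SMART-Seq mRNA LP) without molecular identifiers. Intervals cover counting error and the spread between libraries, in which mice and unequal amplification of single libraries cannot be told apart. Unequal amplification between whole groups is not covered. Per the labels, the authors demultiplexed with bcl2fastq 2.20, aligned with STAR 2.7.11a and counted with featureCounts 2.0.6, and the deposited values are raw counts per gene symbol. The genome build behind the counts is not given unambiguously in the sources used here. Coordinates, exon lengths and promoter windows come from GRCm38 (GENCODE M21 and RefSeq) and were matched by symbol. Exon lengths are those of M21, and the counted models can differ from them.

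Counts were fitted in R 4.3.3 with the quasi-likelihood test of edgeR 4.0.16 after TMM scaling, over all 4 groups and without covariates, on genes with at least 10 counts in all. Intervals are 95% intervals and rest on 1 spread per gene that the groups of a fit share. P-values were adjusted by Benjamini and Hochberg over the 16632 genes tested, and a gene was called at an adjusted p below 0.05 and a log2 fold change beyond 1. All tests were two-sided. The common biological coefficient of variation was 1.13. CPM are counts divided by the TMM-scaled library size, and log2 CPM carry a prior count of 2. A floor of 3 counts marks values too low to compare. The fits were tested on simulated counts. For the main fit these had large changes and a coefficient of variation below 1.13 that was equal in all groups. That test therefore cannot show how the main fit performs at the spread of these libraries.

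Alternatives were DESeq2 1.42.0, its size factors in edgeR, other filters, the 10 libraries of a comparison alone, thinned counts, the title letter as covariate, each mouse left out, and the mouse as a replicate block (random in limma 3.58.1, fixed in edgeR). Both libraries of a mouse come from 1 animal, so the mouse numbers pair them by design. The deviations of such libraries from their group means correlated with r of 0.000914 to 0.119, and the consensus correlation was 0.0413. Sums of the libraries of each mouse were fitted after the data had been seen. The members, the lists and the markers were chosen with earlier results of these data known. All 10 members are named, and of each list up to 3 genes called in a direction by smallest p, with Il1b, Gsdmd, Ywhag, Ifi47 and Ifnar1 named after their values were seen. The protein sequences of the members were not used here, and a few genes that the rules would name are not reported here.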

Additional observations from a re-analysis of the deposited data

Results flagged for a closer look

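In each set of 5 libraries per gene and group, the highest and the lowest value were compared with the rest. Of 40 such sets 2 held a library far from the others, and chance flags about 1 in 20. Gbp2 was at 2.71 CPM (24 counts) in the tdT- CTL library of mouse 178, where the other 4 libraries were at 59.3 to 86.2 CPM. Irgm2 was at 144 CPM in the tdT+ LPS library of mouse 61, where the other 4 were at 59.2 to 74.6 CPM.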

How the results depend on the processing

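Of 920 values of members under alternatives, 864 kept their direction and their side of the thresholds, 38 changed sign, 9 lost a call and 9 gained one. No value called in the main fit changed sign. The number of members called for LPS in tdT- dCAMs was 1 in the main fit, 4 with the random replicate block and 1 to 2 with a mouse left out (2 without CTL mouse 175 or 177). For LPS in tdT+ dCAMs it was 2 in the main fit, 5 in the 10 libraries alone, 1 with the random replicate block, 1 with the title letter as covariate and 1 to 2 with a mouse left out (1 without CTL mouse 175, 177 or 178 or LPS mouse 59, 60 or 61). It stayed at 0 for both comparisons of the populations and for the difference of the LPS effects under every alternative run. Over all genes, calls for LPS in tdT- dCAMs numbered 1907 in the main fit, 891 in the 10 libraries alone, 2843 in DESeq2 and 4523 with the random block, and in tdT+ dCAMs 979, 2262, 1545 and 1571. Between the populations in CTL mice they numbered 712, 7, 1644 and 2245. The cause of these changes was not tested.

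With the random replicate block (limma-voom) the log2 value of Irgm2 turned to 1.52 for LPS in tdT- and 0.0704 in tdT+ dCAMs. In that fit Gbp5, Gbp6 and Irgm2 turned to 1.70, 1.96 and 1.62 between the populations in CTL mice, and to -1.76, -1.40 and -1.44 for the difference of the LPS effects. With the fixed replicate block in edgeR the same genes turned to 1.88, 0.91 and 1.37, and to -2.02, -0.45 and -1.25. Counts thinned to the smallest library put Igtp at -0.0070 between the populations in LPS mice. The paired fits changed no other direction. Leaving out a mouse gave ranges that crossed 0 for LPS in tdT- dCAMs for Irgm2 (-0.70 to 0.83) and Igtp (-0.11 to 0.65), and in tdT+ dCAMs for Irgm2 (-0.33 to 0.11). Between the populations in CTL mice they did so for Gbp2 (-0.0342 to 0.76), Gbp3 (-0.15 to 0.61), Gbp4 (-0.32 to 2.01), Gbp5 (-1.84 to 1.74), Gbp6 (-1.02 to 0.67) and Irgm2 (-0.41 to 0.88). In LPS mice they did so for Gbp4 (-0.19 to 0.0289), Gbp5 (-0.33 to 0.13), Irgm2 (-0.11 to 0.31) and Igtp (-0.0928 to 0.11), and for the difference of the LPS effects for Gbp2 (-0.66 to 0.14), Gbp4 (-2.04 to 0.25), Gbp5 (-1.87 to 1.74), Gbp6 (-0.0638 to 1.63) and Irgm2 (-0.72 to 0.57). Of 453 values of called list genes, 390 kept their call and none changed sign. Counts of Gbp4, Gbp5 and Gbp6 ran from 0 to 261, 0 to 485 and 0 to 178 in tdT- CTL libraries. In tdT+ CTL libraries they ran from 0 to 339, 3 to 85 and 24 to 100. Differences between the populations in CTL mice within the intervals given were not detectable.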

Other observations

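Among the genes whose log2 CPM followed the mean of the 10 members most closely over the 20 libraries, out of 5816 other genes with a mean of at least 4, were Rhbdf2 (Pearson r = 0.921), Tax1bp1 (0.920), Gnptab (0.916) and Znfx1 (0.902). The libraries share mice, treatment groups and depth, so these values describe the table and carry no test. Their fitted log2 fold changes after LPS were 2.48, 3.20, 3.79 and 2.85 in tdT- dCAMs and 1.70, 2.69, 2.57 and 1.86 in tdT+ dCAMs, in the same order. None of these genes is a GBP or an IRG.

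Gbp2b, the relative of Gbp2 with the most shared sequence, was above 3 counts in 3 of 5 tdT+ CTL libraries and in 1 of 5 tdT- LPS libraries, and in none of the tdT- CTL and tdT+ LPS libraries. In LPS mice, Ifi47, Tgtp2 and Iigp1c were the other IRGs for which every library with M in the title was above every library with F. They were 3 of the 15 tested GBP and IRG genes that are no members, against 0.758% of all tested genes. In the same mice 1 of 13 genes of LC3 conjugation, Map1lc3b, was lower in every M library. The share of all genes lower in every M library was not computed.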
